A study of Mus musculus with 6 samples.

Results

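Of the type II cadherin genes of the mouse, 10 lie in 3 stretches of the genome with long gene deserts, and the accessibility of these stretches was compared between HAT1+/+ and HAT1-/- cells. The members were 10 genes and 669 of the 229903 tested sites, namely every site with its midpoint in 1 of 3 windows of the mm10 genome. The windows were chosen by their difference between the genotypes and by the genes they hold, so the differences below are descriptions without a test. The window of chromosome 1 ran from 104.6 to 111.0 Mb and held Cdh20, Cdh7 and Cdh19. The window of chromosome 8 ran from 98.9 to 103.5 Mb and held Cdh8 and Cdh11, and the window of chromosome 15, from 12.9 to 23.9 Mb, held Cdh6, Cdh9, Cdh10, Cdh12 and Cdh18. Cdh11 and Cdh6 were set apart from the other 8 genes when the windows were chosen.

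Cadherins are calcium-dependent adhesion proteins that span the plasma membrane, bind cadherins on the neighbouring cell and hold catenins at their cytoplasmic end. Type II cadherins lack the HAV motif of the classical type I proteins such as E-cadherin and N-cadherin. Most are best known from the nervous system, where different neuron pools carry different members, whereas Cdh11 is also known as OB-cadherin and is the type II cadherin of mesenchymal cells, fibroblasts and osteoblasts. Cdh6 is known from kidney tubules, somites and neural crest, and Cdh19 and Cdh20 from neural crest derivatives and the nervous system. A gene desert is a long stretch of DNA without a protein-coding gene.

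ATAC-Seq, in which a transposase cuts accessible DNA and leaves adaptors for sequencing, was applied to fibroblasts grown directly from mouse embryos (pMEFs), from 3 HAT1+/+ and 3 HAT1-/- embryos on the C57bl6 background. HAT1 acetylates newly made histone H4 before it is deposited on DNA, and HAT1-/- embryos carry the knockout of its gene on both alleles. No agent was given to either group, and each line came from cells of an embryo without its internal organs, so other cell types can be present. The level of a site is the authors' mean of the normalized reads over the 3 lines of a genotype, deposited on a log2 scale. The levels of single lines were not used here, so no spread between lines can be given, no difference was tested against it, and fewer cells of a type and lower accessibility per cell cannot be told apart. All differences are log2 levels in HAT1-/- minus HAT1+/+ cells.

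Over all tested sites the median level was 14.5 reads in HAT1+/+ and 13.8 reads in HAT1-/- cells, the median difference was -0.06, and the depth of single lines is unknown. The targeted gene, Hat1 on chromosome 2, had 3 tested sites. Its promoter site had 207 reads in HAT1+/+ and 239 reads in HAT1-/- cells, a second site had 12.6 and 17.5 reads, and the site from 71421184 to 71421348 had 22.0 and 3.41 reads. Which of them lie in the deleted part is not given in the sources used here, so Hat1 does not check the labels. All 13 fibroblast genes examined had a promoter site. Their reads in HAT1+/+ cells ran from 4.66 in Lum to 673 in Vim. The median per gene was 255 reads in HAT1+/+ and 260 in HAT1-/- cells. The 14 marker genes of epithelium, endothelium, blood, neurons and muscle also had a promoter site each, with a median of 46.5 and 38.7 reads. In HAT1+/+ cells they ran from 8.28 reads in Ptprc to 230 in Tubb3, so the ranges of fibroblast and other markers overlap. The part of other cell types in the results was not tested.

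The sites described below include stretches of strong loss and sites that kept their level beside them. The central 200 bases of such sites are given in lower case, on the plus strand of GRCm38 (mm10), with capitals for matches on either strand to the AP-1 motif TGANTCA, the TEAD motif GGAATG, the RUNX motif TGTGGT, the E-box CAGCTG and the homeobox motif TAATTA. The first 5 sequences are those of lower sites. None of the 9 sequences overlaps an annotated exon of a protein-coding gene, and exons of noncoding genes were not checked.
Cdh7 desert, chr1:109823660-109823859, log2 difference -3.22: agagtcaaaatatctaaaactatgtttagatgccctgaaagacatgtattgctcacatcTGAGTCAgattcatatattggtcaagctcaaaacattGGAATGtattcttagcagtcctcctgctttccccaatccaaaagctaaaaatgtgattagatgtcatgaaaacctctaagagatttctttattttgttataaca
Cdh20 intron, chr1:104851025-104851224, -2.37: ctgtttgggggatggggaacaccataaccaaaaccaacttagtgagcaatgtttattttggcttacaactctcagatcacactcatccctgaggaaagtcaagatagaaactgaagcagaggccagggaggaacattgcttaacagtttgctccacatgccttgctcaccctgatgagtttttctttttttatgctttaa
Cdh12 desert, chr15:20223822-20224021, -2.16: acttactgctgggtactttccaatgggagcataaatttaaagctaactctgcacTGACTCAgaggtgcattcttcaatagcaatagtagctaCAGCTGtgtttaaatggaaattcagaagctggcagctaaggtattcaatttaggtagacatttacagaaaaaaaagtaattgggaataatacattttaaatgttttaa
Cdh12 intron, chr15:20643004-20643203, -1.17: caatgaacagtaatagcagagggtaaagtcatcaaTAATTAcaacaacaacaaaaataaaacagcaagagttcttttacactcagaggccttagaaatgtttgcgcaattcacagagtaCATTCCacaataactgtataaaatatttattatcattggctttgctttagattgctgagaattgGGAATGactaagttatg
Cdh10 desert, chr15:19027240-19027439, -1.27: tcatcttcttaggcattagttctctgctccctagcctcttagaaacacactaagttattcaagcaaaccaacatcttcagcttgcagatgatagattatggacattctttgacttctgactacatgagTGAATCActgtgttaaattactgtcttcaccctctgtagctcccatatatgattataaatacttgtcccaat
The other 4 sequences are those of sites with nearly the same level in both genotypes. The Cdh20 desert site among them lies between the genes Tnfrsf11a and Zcchc2.
Cdh20 desert, chr1:105906512-105906711, -0.03: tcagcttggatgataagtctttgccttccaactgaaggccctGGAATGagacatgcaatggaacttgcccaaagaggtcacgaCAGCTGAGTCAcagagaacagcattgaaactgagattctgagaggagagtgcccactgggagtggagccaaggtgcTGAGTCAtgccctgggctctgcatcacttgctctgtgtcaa
Cdh9 desert, chr15:16404228-16404427, -0.01: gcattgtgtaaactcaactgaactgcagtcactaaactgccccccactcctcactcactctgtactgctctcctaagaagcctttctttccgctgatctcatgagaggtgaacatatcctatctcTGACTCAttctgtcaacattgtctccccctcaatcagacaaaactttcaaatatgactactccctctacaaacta
Cdh10 desert, chr15:19675716-19675915, 0.02: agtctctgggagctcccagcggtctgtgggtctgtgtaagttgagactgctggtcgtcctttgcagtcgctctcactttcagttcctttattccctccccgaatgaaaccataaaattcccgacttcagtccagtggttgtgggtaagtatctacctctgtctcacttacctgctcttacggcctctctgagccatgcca
Cdh18 intron, chr15:22733157-22733356, -0.14: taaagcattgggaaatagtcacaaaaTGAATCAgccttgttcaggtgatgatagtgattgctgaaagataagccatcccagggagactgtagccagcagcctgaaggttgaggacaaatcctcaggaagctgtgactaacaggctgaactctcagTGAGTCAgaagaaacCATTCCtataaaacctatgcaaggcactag
AP-1 matches stood in 3 of the 5 lower and 3 of the 4 kept sequences, so the motif did not separate these examples. In the kept Cdh20 sequence an E-box and an AP-1 match overlap.

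Across the 3 windows, 134 of the 669 sites (20.03%) had a difference of -1 or lower, that is, a level in HAT1-/- cells at most 0.5 times that in HAT1+/+ cells, against a background of 5.11% of all tested sites. A difference of 1 or higher was found at 16 window sites (2.39%), where the background was 2.82%. Differences below 0 were found at 413 window sites (61.7%), against 55.0% of all tested sites. The median difference of the window sites was -0.21, with quartiles of -0.84 and 0.20, and the summed reads in HAT1-/- cells were 84.5% of those in HAT1+/+ cells. Most sites were thus close to their HAT1+/+ level, and a minority was far below it.

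That minority was not spread evenly. Desert sites, those more than 3 kb from every protein-coding gene, had a median difference of -0.29, and 103 of 395 (26.1%) were at or below -1. They include sites in shorter gaps between genes, such as those between Rnf152 and Pign or between Bcl2 and Kdsr. The desert of a member means here the desert sites nearest to it, which need not lie in 1 long desert. Sites in other protein-coding genes of the windows had a median of 0.00, and 14 of 170 (8.24%) were at or below -1. The 104 sites in the body, or within 3 kb, of a type II cadherin gene lay in between, with a median of -0.23 and 17 sites (16.3%) at or below -1. The windows were sparse in both sites and genes: chromosome 1 held 53.3 sites per Mb, chromosome 8 held 25.0 and chromosome 15 held 19.4, where all chromosomes but Y held 87.3. Starts of protein-coding genes stood at 3.59, 0.43 and 0.55 per Mb in the 3 windows, against 8.25 per Mb overall.

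**Figure D1:**
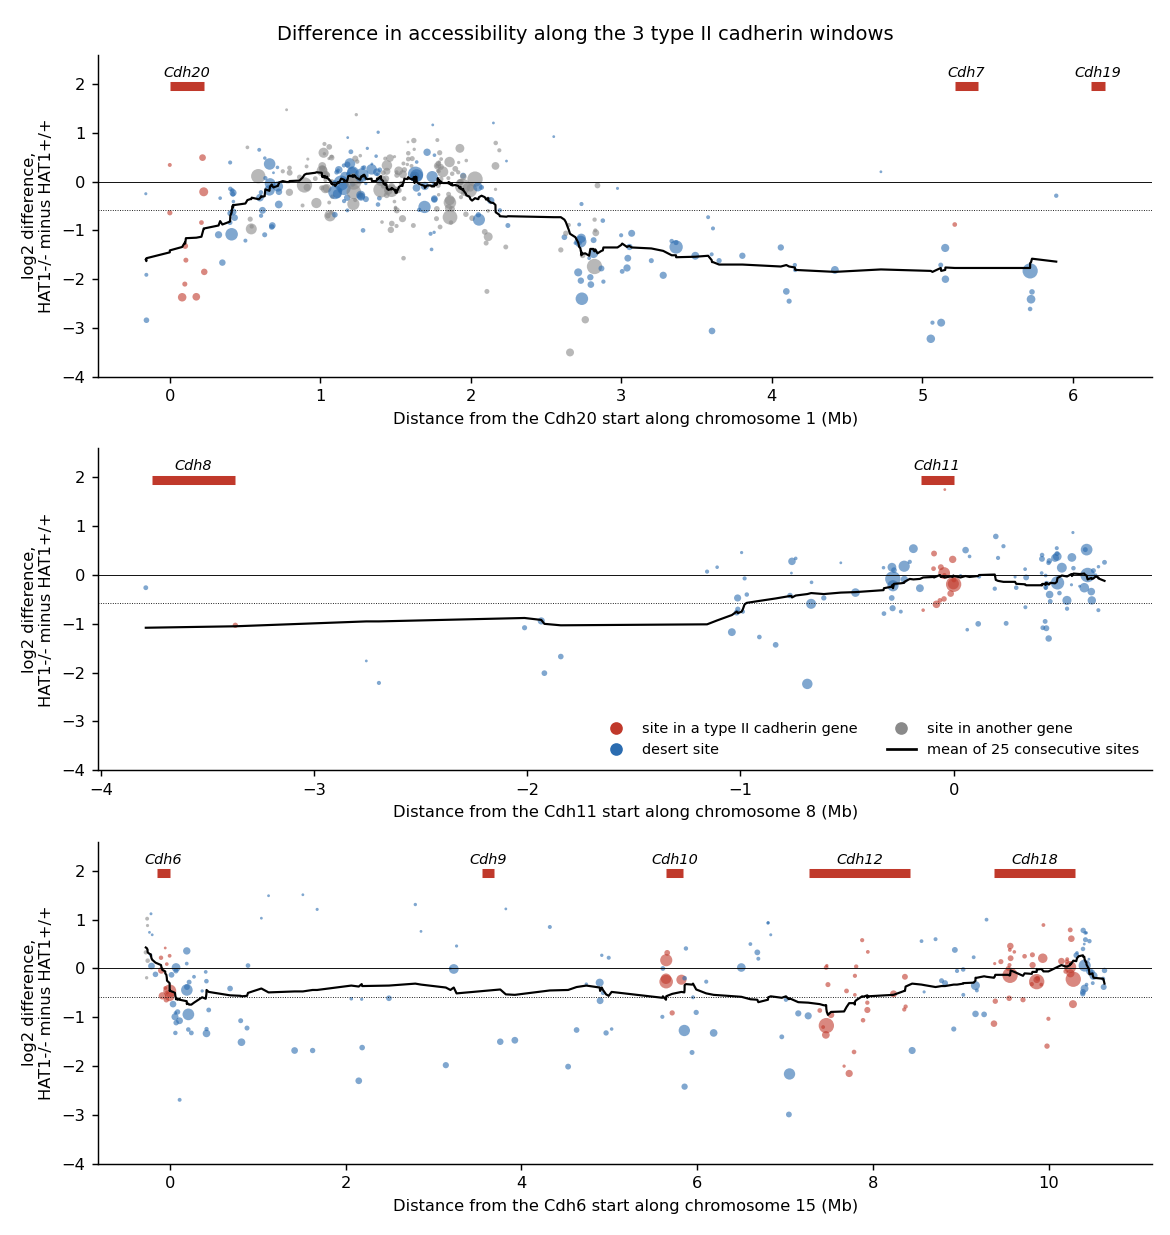
Log2 difference of each window site (HAT1-/- minus HAT1+/+, vertical axis) by its distance in Mb from the start of Cdh20, Cdh11 or Cdh6 (horizontal axis), with larger points for more reads in HAT1+/+ cells, the mean of 25 consecutive sites as a black line, -0.58 as a dotted line and the 10 cadherin genes as red bars. On chromosome 1 the line stays near 0 between stretches around -1.5 at both ends, on chromosome 8 it climbs from about -1 at Cdh8 to about 0 at Cdh11, and on chromosome 15 it is mostly between 0 and -1.

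The HAT1-dependent accessibility domains (HADs) of the study are stretches in which the mean difference of 25 consecutive sites is under -0.58. Computed here from the genotype means, with stretches joined when no more than 1 Mb apart, HADs covered 72.6% of the chromosome 1 window, 63.2% of the chromosome 8 window and 24.3% of the chromosome 15 window, against 11.6% of all chromosomes but Y. The chromosome 1 window touched a HAD of 7.001 Mb at Cdh20 and another of 11.4 Mb that began between Bcl2 and Cdh7 and ran past Cdh19. Their mean differences over sites were -1.46 and -1.41. The chromosome 8 window touched a HAD of 3.85 Mb with a mean difference of -0.94, and the chromosome 15 window held HADs of 0.339 and 2.33 Mb, each with a mean of -0.63. Cdh20, Cdh7, Cdh19, Cdh8 and Cdh10 lay wholly within a HAD, Cdh12 lay within one over 57.9% of its length, and Cdh11, Cdh6, Cdh9 and Cdh18 lay outside. The chromosome 15 calls depended on the cutoff: 0% of that window was in a HAD at a cutoff of -1 and 62.3% at -0.4, and with means over 51 sites Cdh10 was outside. Within HADs, 93 of 180 window sites were at or below -1 and the median difference was -1.06. Outside, 41 of 489 were, and the median was -0.05. HADs are defined by the mean of these same differences, so lower values inside them follow from the definition.

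**Figure D2:**
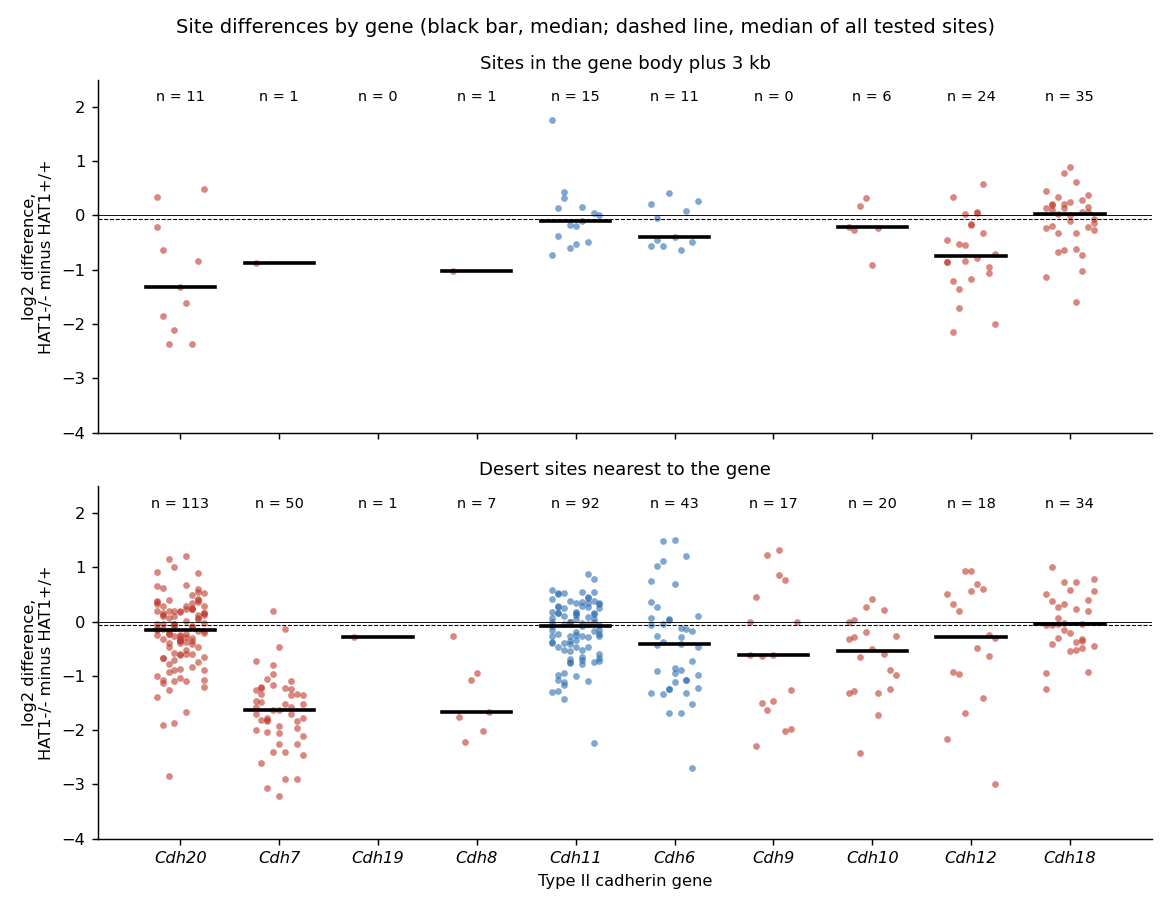
Log2 difference of single sites (HAT1-/- minus HAT1+/+, vertical axis) in each type II cadherin gene plus 3 kb (upper panel) and in the desert nearest to it (lower panel), with black bars for medians, a dashed line for the median of all tested sites and blue points for Cdh11 and Cdh6. The gene medians are lowest in Cdh20, Cdh8, Cdh7 and Cdh12 and near 0 in Cdh11 and Cdh18, and the desert of Cdh7 has the lowest run of many sites.

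Of the 10 genes, 8 held a tested site, and 4 of the 8 had a median difference of -0.58 or lower: Cdh20, Cdh8, Cdh7 and Cdh12. For Cdh7 and Cdh12 this did not hold with 5 reads added to each level, which gave -0.55 and -0.44, and over sites of 10 reads or more Cdh12 had -0.52. None had a median of 0.58 or higher. Of the 6 with at least 5 sites, Cdh20 and Cdh12 were at or below -0.58, where the background over 9300 protein-coding genes with as many sites was 1.48%. Cdh19 and Cdh9 had no site in the body or within 3 kb. Levels are compared between genes per kb of tested site. In HAT1+/+ cells the order was Cdh10 with 121 reads per kb, Cdh18 with 95.0, Cdh11 with 89.8, Cdh12 with 85.4, Cdh6 with 73.98, Cdh20 with 66.1, Cdh8 with 44.4 and Cdh7 with 44.1, and all tested sites together had 105. In HAT1-/- cells Cdh10 (112), Cdh18 (89.0) and Cdh11 (84.3) kept the first places, followed by Cdh6 with 57.7, Cdh12 with 48.4, Cdh20 with 36.5, Cdh7 with 23.9 and Cdh8 with 21.8 reads per kb. Cdh12 and Cdh6, and Cdh8 and Cdh7, thus exchanged places, and without a spread between lines it cannot be said which neighbours in these orders differ.

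Cdh20 (ENSMUSG00000050840, chromosome 1, 104768529 to 104995481, plus strand), a cadherin of the nervous system and neural crest, had the lowest median of any member with several sites. Its 11 sites had a median of 17.3 reads in HAT1+/+ and 6.92 reads in HAT1-/- cells and a median difference of -1.32, with quartiles of -1.98 and -0.43. Only 0.15% of the 9300 genes had a median as low. The intronic site from 104850932 to 104851316 had 37.0 reads in HAT1+/+ and 7.16 in HAT1-/- cells, and that from 104944835 to 104945025 had 30.1 and 5.86. Not all of the gene shared this. The exonic site at its end, from 104993880 to 104994571, had 41.1 and 35.5 reads, the intronic site before it had 23.1 and 32.4 reads, and the promoter sites had 8.11 and 10.3 reads and 13.6 and 8.75 reads. The lowest differences of Cdh20 were thus in its introns and in the site just past its end (21.6 and 5.98 reads), and those at the start and the last exon were smaller. Of its gene and desert sites with 32 reads or more, the least changed lay between Tnfrsf11a and Zcchc2, 911.1 kb away. It ran from 105906290 to 105906933 and had 115 and 113 reads.

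Cdh7 (ENSMUSG00000026312, chromosome 1, 109982431 to 110140157, plus strand), which marks pools of neurons and the neural crest, held 1 site, at its first start, with 11.2 reads in HAT1+/+ and 6.11 in HAT1-/- cells (difference -0.88). Loss was found at the desert sites nearest to it, which reached 2488.0 kb away and included sites between Serpinb genes. Of the 50 desert sites nearest to Cdh7, 49 were below 0 and 44 (88.0%) were at or below -1. Their median level was 19.2 reads in HAT1+/+ and 5.19 reads in HAT1-/- cells, their median difference was -1.62, and 31.6% of the summed reads were left. Of these sites, 10 had 32 reads or more in HAT1+/+ cells, and all 10 were below -1. They ran from -1.16, at 107502009 to 107502358, to -3.22, at 109823541 to 109823978, where 37.0 reads stood against 3.97. The site with most reads, from 110483444 to 110483929 and 343.5 kb past the gene, had 119 and 33.4 reads. Cdh19 (ENSMUSG00000047216, 110888326 to 110977584, minus strand), a cadherin of Schwann cell precursors, lay in the same HAD without a site of its own. The window site nearest to it, 231.4 kb away, had 9.71 and 7.95 reads (-0.29), and the next tested site on its other side, beyond the window and 265.2 kb from the Cdh19 start, had 13.8 and 4.72 reads.

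Between Cdh20 and the desert sites nearest to Cdh7 lay a block in which most sites kept their level. From 105.0 to 107.0 Mb, 256 sites had a median difference of -0.04, 14 were at or below -1, and 95.6% of the reads were left. From 107.0 to 110.5 Mb, 70 sites had a median of -1.50, 56 were at or below -1, and 33.3% of the reads were left. The limits of these 2 stretches were set where the medians of 0.5 Mb bins crossed -0.58. The contrast between them therefore follows from how they were cut. The protein-coding genes of the window with most sites lay in the block: Phlpp1, a phosphatase that acts on Akt, with 46 sites and a median difference of 0.04, Bcl2, an inhibitor of apoptosis, with 35 sites and 0.07, and Tnfrsf11a, the receptor of RANK ligand, with 24 sites and 0.15. Lower medians were found near both ends of the block. Rnf152, a ubiquitin ligase gene on the side of Cdh20, had 5 sites and a median of -0.77. None of its sites was at or below -1, however, and 86.05% of its reads were left. Its site with most reads had 105 in HAT1+/+ and 114 in HAT1-/- cells. Serpinb5, at the other end, had 6 sites and a median of -1.08, with 4 sites at or below -1 and 48.1% of the reads left. Serpinb5 is the first of 11 genes of the Serpinb family of serine protease inhibitors, which run from the end of the block into the stretch of loss. Of the 11, 7 held a site and 6 of these had a median at or below -0.58. Among those 6, Serpinb13 and Serpinb11 held 1 site each, Serpinb2 held 2 and Serpinb7 held 3. Only Serpinb5 and Serpinb8 had at least 5 sites, as did the genes of the 1.48% background. The Serpinb genes were singled out after their values were seen. Their 22 sites had a median of 13.5 reads in HAT1+/+ and 5.78 in HAT1-/- cells. The exception was Serpinb12, with 4 sites and a median of 0.48.

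Cdh8 and Cdh11 face each other across a desert without any other protein-coding gene. Cdh8 (ENSMUSG00000036510, chromosome 8, 99024471 to 99416471, minus strand), a cadherin of forebrain and spinal circuits, held 1 site, at its start, with 14.6 reads in HAT1+/+ and 7.16 in HAT1-/- cells (difference -1.03). The 7 desert sites nearest to it were all below 0, 5 of them at or below -1, and had a median of 13.5 and 5.10 reads. The site from 100865711 to 100865945 had 16.7 and 4.14 reads, and that from 100030462 to 100030650 had 2.51 reads in HAT1+/+ cells and the lowest level of the table, 0.742 reads, in HAT1-/- cells, so its difference of -1.76 depends on that floor. The sites were few, and the longest gap of the window between tested sites was 686 kb.

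Cdh11 (ENSMUSG00000031673, chromosome 8, 102632095 to 102785642, minus strand), the mesenchymal member, was at nearly the same level in both genotypes. Its start site, from 102784836 to 102786203, had 214 reads in HAT1+/+ and 187 reads in HAT1-/- cells. The other sites near its start had 63.1 and 55.7 reads and 12.2 and 11.4 reads. The intronic site from 102740890 to 102741422 had 71.01 and 73.0 reads. Its 15 sites ran from -0.72 to 1.75, 8 were below 0 and none was at or below -1, their median difference was -0.10, and 40.0% of the 9300 genes had a median as low. The site at 1.75 had 3.84 and 12.9 reads. The genes with the most similar pair of median levels were Ankrd42, Rbm34 and Pdzd8, at a distance of at most 0.011 on the log2 scale, and 217 of the 9300 genes lay within 0.1, so the pattern of Cdh11 is a common one.

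The level relative to HAT1+/+ cells changed with the distance from Cdh11 towards Cdh8. Up to 50 kb into the gene, 8 sites had a median difference of -0.09, from 200 to 500 kb 13 sites had -0.09, from 500 to 1000 kb 15 sites had -0.40, from 1000 to 2000 kb 9 sites had -0.77, and from 2000 to 4000 kb 5 sites had -1.08. The summed reads left in HAT1-/- cells over the same distances were 94.0%, 93.6%, 66.4%, 55.8% and 50.96%. On the other side of the start no such change was seen as far as the window reached. The medians there were -0.05 over 29 sites from 200 to 500 kb and 0.00 over 19 sites from 500 kb onwards. The last of these sites was 707.7 kb away, so the far distances were measured on the Cdh8 side only. An exception within the near desert was the site from 102098762 to 102099608, 532.9 kb beyond the end of Cdh11, with 55.7 reads in HAT1+/+ and 11.9 in HAT1-/- cells, whereas the site from 103413525 to 103414419, 628.3 kb upstream, had 108 reads in both.

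Cdh6 (ENSMUSG00000039385, chromosome 15, 13028701 to 13173675, minus strand), also called K-cadherin, held 11 sites with a median of 9.92 reads in both genotypes, a median difference of -0.40 and no site at or below -1. Its start site, from 13172992 to 13173797, had 85.6 reads in HAT1+/+ and 62.3 in HAT1-/- cells, and the site beside it, with 47.5 reads in HAT1+/+ cells, had a difference of -0.57. The third site near the start had 7.36 and 8.82 reads. Over the gene 78.02% of the summed reads were left, although the median levels were equal. Only 4.53% of the 9300 genes had a median difference as low as Cdh6. Upstream of its start the differences were lower up to 1000 kb: 13 sites from 50 to 200 kb had a median of -0.89, 11 sites from 200 to 500 kb had -0.85, all 11 below 0, and 5 sites from 500 to 1000 kb had -1.07. Farther out, from 1000 to 2000 kb, 6 sites had a median of 1.12 at a median of 3.86 reads in HAT1+/+ cells, 4 of them at or above 1 and 2 at or below -1. From 2000 to 4000 kb, a stretch that reaches past Cdh9, 14 sites had a median of -0.61. Of these, 5 were at or below -1 and 2 at or above 1. Downstream, 10 sites from 200 kb to the window border at 12.9 Mb had a median of 0.51, at a median of 5.82 reads in HAT1+/+ cells. Of these, 5 lay in introns of Drosha. In the upstream desert the site from 13384859 to 13385180 had 70.0 and 36.5 reads.

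Cdh9 (ENSMUSG00000025370, chromosome 15, 16728756 to 16857094, plus strand), which guides synapses of the retina and hippocampus, had no site of its own, and the site nearest to a start was 155.1 kb away, with 21.9 reads in HAT1+/+ and 7.73 in HAT1-/- cells. The 17 desert sites nearest to Cdh9 had a median of 16.1 and 6.96 reads, and 7 of them were at or below -1. Their median difference was smaller than these levels imply, at -0.62, with quartiles of -1.50 and 0.46. They were split: the site with most reads, from 16404063 to 16404591, had 48.5 and 48.2 reads, and 2 sites were at or above 1, both with under 6 reads in HAT1+/+ cells.

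Cdh10 (ENSMUSG00000022321, chromosome 15, 18818947 to 19014236, plus strand), another cadherin of the brain, kept its level within a HAD. Its sites near a start had 56.5 and 48.8 reads, 94.4 and 78.2 reads, and 75.6 and 85.0 reads in HAT1+/+ and HAT1-/- cells. The 6 sites of the gene had a median of 54.6 and 46.9 reads and a median difference of -0.22, and 1 of them, an intronic site with 14.1 and 7.52 reads, was below -0.58. The desert sites within the HAD and nearest to Cdh10 differed from this, with a median of -0.74 over 12 sites and 60.4% of the reads left. The site from 19027029 to 19027650, 13.1 kb past the end of the gene, had 65.8 and 27.3 reads, and that from 19675625 to 19676006 had 38.1 and 38.6. The 25-site mean that places Cdh10 in a HAD was between -0.48 and -0.64 at its sites, just either side of the cutoff.

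Cdh12 (ENSMUSG00000040452, chromosome 15, 20449265 to 21589533, plus strand), the brain cadherin N-cadherin 2, is the longest member with 1140 kb. Its 24 sites had a median of 10.8 reads in HAT1+/+ and 8.31 in HAT1-/- cells and a median difference of -0.74, with 19 below 0 and 7 at or below -1, and 0.80% of the 9300 genes had a median as low. The intronic site from 20642816 to 20643391, within the noncoding gene Gm49685, had 174 and 77.2 reads, that from 20637127 to 20637700 had 30.3 and 11.8, and the site from 20902582 to 20902876 had 26.7 and 6.02. The sites at its downstream start had 9.58 and 5.90 reads and 19.2 and 10.6 reads, and no site lay within 3 kb of its upstream start. The desert site before the gene, from 20223667 to 20224176, had 65.8 and 14.7 reads. Median levels closest to those of Cdh12 were found in Bbs4, Mal and Ssr3, and 55 of the 9300 genes lay within 0.1 on the log2 scale.

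Cdh18 (ENSMUSG00000040420, chromosome 15, 22549022 to 23474418, plus strand), another cadherin of the central nervous system, had the most sites of the members and a median difference of 0.03. Of its 35 sites, 16 were below 0 and 3 were at or below -1. The site at its main start, from 23035719 to 23036565, had 167 reads in HAT1+/+ and 138 in HAT1-/- cells, the intronic site from 22733055 to 22733457 had 136 and 124, and that from 23452060 to 23452632 had 126 and 108. The site from 23416668 to 23417122 had 74.5 and 76.1 reads, that from 23448486 to 23448868 had 32.4 and 19.6, and the one beside the main start had 22.9 and 19.6. An exception was its upstream start, where the site from 22549763 to 22550123 had 22.0 and 10.1 reads. The 34 desert sites nearest to Cdh18 had a median of -0.04, and 98.6% of their reads were left.

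**Figure D3:**
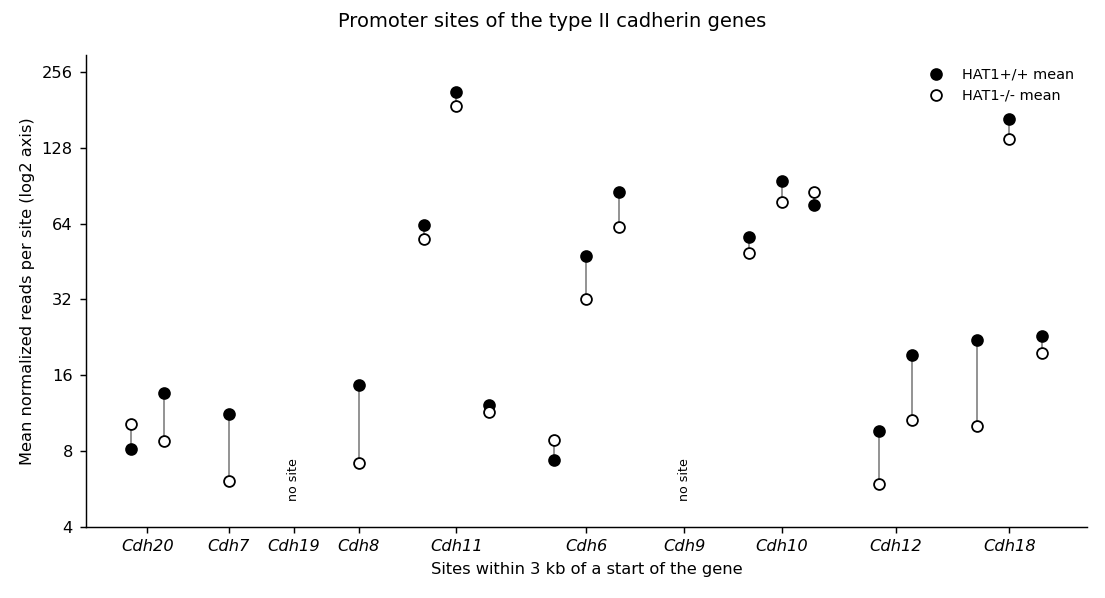
Authors' mean normalized reads (vertical axis, log2 scale) in HAT1+/+ (filled circles) and HAT1-/- cells (open circles) at each tested site within 3 kb of a start of a type II cadherin gene (horizontal axis), joined by a line per site. The sites above 50 reads in HAT1+/+ cells belong to Cdh11, Cdh6, Cdh10 and Cdh18, and the sites of Cdh7, Cdh8 and Cdh12 lie under 20 reads with the open circle below the filled one.

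At the starts of the genes, 18 sites were tested in 8 genes, with a median difference of -0.27. Of these sites, 15 were below 0, 6 at or below -0.58 and 2 at or below -1. Over all tested sites the shares were 55.0%, 14.99% and 5.11%. With the promoter sites of a gene added up, 93.7% of the reads were left in Cdh10, 88.0% in Cdh11, 87.4% in Cdh20, 79.3% in Cdh18, 73.4% in Cdh6, 57.5% in Cdh12, 54.3% in Cdh7 and 49.0% in Cdh8. The levels in HAT1+/+ cells were 162 reads per kb of promoter site in Cdh10, 143 in Cdh18, 137 in Cdh11 and 97.6 in Cdh6, and between 44.1 and 67.5 in Cdh12, Cdh20, Cdh8 and Cdh7. The 4 genes with the highest of these levels were those whose gene median was above -0.58. This match was seen after the values were known, and promoter sites also count towards the gene medians. In Cdh7 and Cdh8 the promoter site is the only site of the gene. Cdh20, with a lower level, had more promoter reads left than Cdh18 and Cdh6. In RefSeq promoter windows of 300 bases (GRCm38.p6), which were matched for 8 of the 10 genes and not for Cdh11 and Cdh19, CpG dinucleotides numbered 2 in Cdh10, 8 in Cdh6 and Cdh9, 9 in Cdh12, 12 in Cdh18, 18 in Cdh20, 21 in Cdh8 and from 4 to 19 in the 3 windows of Cdh7. The median of 32851 promoters was 7, so the order of CpG counts was not that of the reads left.

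With Cdh11 and Cdh6 pooled, 26 sites had a median difference of -0.14 and 88.9% of the reads were left. None was at or below -1, which for 26 sites is near the background of 5.11% of all tested sites. The 78 sites of the other 8 genes had a median of -0.25, 17 (21.8%) were at or below -1 and 79.9% of the reads were left. The median of -0.25 depended on Cdh18, which gave 35 of the 78 sites: without it the median of the other genes was -0.78. Cdh11 alone had -0.10 and Cdh6 alone -0.40. Setting Cdh11 and Cdh6 apart therefore did not divide the genes into kept and lowered ones, since Cdh18 and Cdh10 had higher medians than Cdh6.

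**Figure D4:**
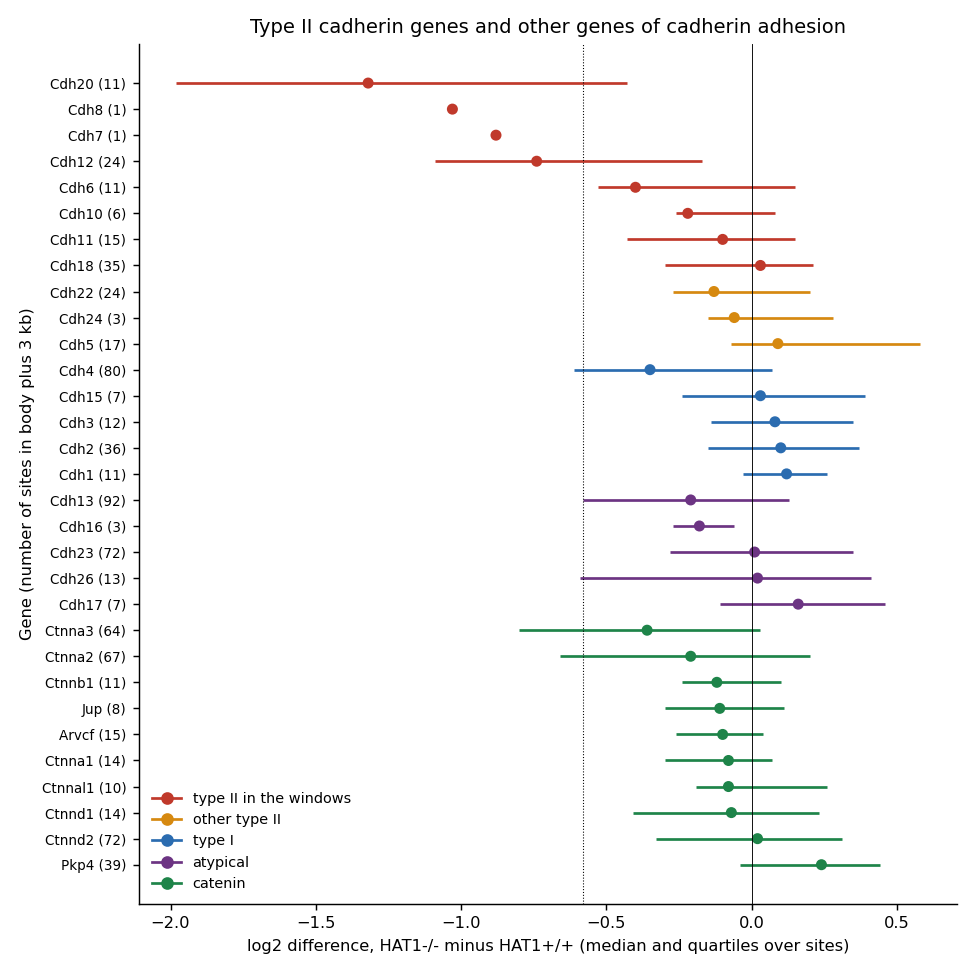
Median log2 difference (point) and quartiles (line) over the sites of each gene plus 3 kb, HAT1-/- minus HAT1+/+, with the number of sites in brackets, for the 8 type II cadherin genes of the windows with a site and 23 other genes of cadherin adhesion, and -0.58 as a dotted line. Cdh20, Cdh8, Cdh7 and Cdh12 lie left of the dotted line and none of the 23 other genes does, near the background of 1.48% of genes. The windows of the 8 genes were chosen by their difference.

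Other genes of cadherin adhesion, outside the windows, were measured in the same way. All 23 had sites, and none had a median difference at or below -0.58 or at or above 0.58. Over 9300 protein-coding genes with at least 5 sites, 1.48% were at or below -0.58, so none of 23 is near that background. The other type II cadherins, Cdh5 of endothelium, Cdh22 and Cdh24, had medians of 0.09, -0.13 and -0.06. Among the type I cadherins the medians of Cdh1 (E-cadherin), Cdh2 (N-cadherin, the main cadherin of fibroblasts), Cdh3 (P-cadherin) and Cdh15 (M-cadherin) were between 0.03 and 0.12, and Cdh4 (R-cadherin) had -0.35. The 5 atypical cadherins ranged from -0.21 in Cdh13, which is anchored by lipid, to 0.16 in Cdh17. The catenins join cadherins to actin. Those used in most tissues, Ctnna1, Ctnnb1, Ctnnd1 and Jup, had medians of -0.08, -0.12, -0.07 and -0.11. Ctnnal1 had -0.08, Arvcf -0.10, Ctnnd2 0.02 and Pkp4 0.24, and the lowest medians were those of Ctnna3 (-0.36) and Ctnna2 (-0.21), long genes of heart and brain that lay within HADs over 31.8% and 31.9% of their length.

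**Figure D5:**
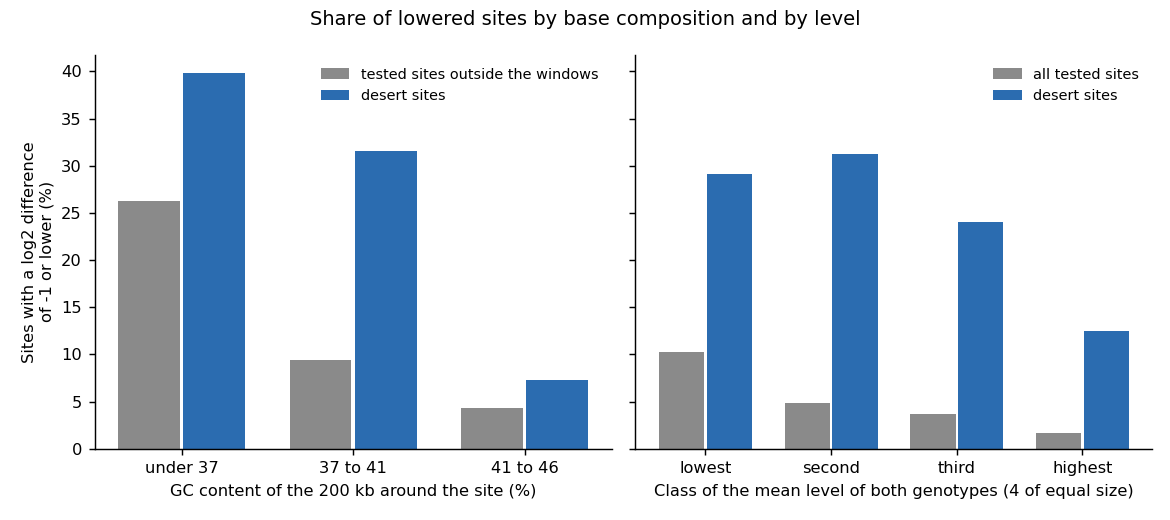
Percent of sites with a log2 difference of -1 or lower (vertical axis) among the desert sites of the type II cadherin windows (blue) and other tested sites (grey), by the GC content of the surrounding 200 kb (left, against tested sites outside the windows) and by the mean level of both genotypes in 4 classes of equal size (right, against all tested sites). The blue bars are higher in each class, and both colours are higher where GC content is lower.

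Features that did not enter the choice of the windows were compared as well. The median GC content of the 200 kb around a site was 39.5% for window sites and 44.2% for all tested sites, and by member it ran from 36.0% near Cdh9 to 42.3% near Cdh20. Since sites of low GC content were more often lower elsewhere too, shares are given within classes of GC content, which were added after the values had been seen. Below 37% GC, 39 of 98 desert sites (39.8%) were at or below -1, against 26.3% of the tested sites outside the windows. From 37 to 41% the shares were 31.6% of 174 desert sites and 9.38%, and from 41 to 46% they were 7.32% of 123 and 4.31%. These classes set desert sites against sites of every kind. Over all window sites the shares were 30.4%, 29.6% and 3.59% in the same classes, and the median difference below 37% GC was -0.32 in the windows and -0.42 outside them. By member, Cdh18 and its desert had a median GC content of 36.3%, and Cdh7 and its desert 37.7%. The part of base composition in the differences was not tested.

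Large differences in both directions were more frequent at low levels among all tested sites. Shares of lower sites are therefore given within 4 classes of equal size by the mean level of both genotypes. Differences of 1 or higher were found at 8.24% of all tested sites in the lowest class and 0.09% in the highest. For desert sites these shares were 6.94% and 0%. In the lowest class, up to 8.55 reads, 29.2% of 144 desert sites and 10.2% of all tested sites were at or below -1. In the second class the shares were 31.3% and 4.86%, in the third 24.0% and 3.64%, and in the highest, above 28.2 reads, 8 of 64 desert sites (12.5%) and 1.69%. Those 8 sites all lay within HADs, where 13 desert sites of the highest class had a median difference of -1.16. Outside HADs, 51 such sites had a median of -0.03 and none was at or below -1, a contrast that the definition of a HAD by the same differences favours. For the sites of the other 8 genes the shares from the lowest to the highest class were 35.0%, 22.2%, 15.8% and 8.33%, and for Cdh11 and Cdh6 they were 0% in each of the 4 classes, of 6 or 7 sites each.

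Motifs were counted in the central 200 bases of each site, on both strands. The AP-1 motif was in 29.9% of the 669 window sites and 33.2% of the desert sites, against 23.0% of all tested sites. It was in 42 of 103 desert sites at or below -1 (40.8%) and in 89 of the other 292 (30.5%), and desert sites with and without it had median differences of -0.34 and -0.28. Such sites also had more reads, with a median of 15.6 in HAT1+/+ cells against 11.8 without the motif. The TEAD motif was in 18.2% of window sites and 15.6% of all sites. It was in 12 of the 26 sites of Cdh11 and Cdh6 (46.2%) and in 21 of the 78 sites of the other 8 genes (26.9%). The RUNX motif was in 22.9% of window sites and 19.6% of all sites, the E-box in 14.7% and 16.01%, and the homeobox motif in 5.08% and 2.44%. The CTCF motif was in 7 window sites (1.05%), against 2.72% of all sites, and the NFI motif was in none. A match describes the letters of the sequence and not the binding of a factor, and these shares were not tested.

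At the borders of the windows the nearest sites were as follows. On chromosome 1 the first site inside had a difference of -0.25 and the last site outside, 15.6 kb before the border, had 42.5 and 5.50 reads (-2.95), so the stretch of loss began before the window. At the other border of chromosome 1 they had -0.29 and -1.55. On chromosome 8 the first site inside had -0.26 and the last outside -1.70, and at the other border they had 0.26 and 0.13. On chromosome 15 the first site inside had 0.33 and the last outside -0.21, and at the end they had -0.04 and -1.21.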

How the data were processed

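Chromatin accessibility was measured by ATAC-Seq in 3 HAT1+/+ and 3 HAT1-/- pMEF lines. Per the submitters' processing notes and the study's methods, the ENCODE ATAC-Seq pipeline was run on mm10, with Bowtie2 as aligner and MACS2 as peak caller, and DiffBind 2.14.0 set the genotypes against each other. The authors deposited, per site, the log2 of the mean normalized reads of each genotype. The consensus rule and the library normalization are not given in the sources used here. The table also holds the authors' own fold changes, p-values and false discovery rates, which were not used. Raw counts and the depth per line are unknown, so precision is limited by the reads per site and no interval is given.

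The difference is the deposited log2 level of HAT1-/- minus that of HAT1+/+. Sites were assigned by their midpoint to the windows and to genes of GENCODE vM21 on GRCm38, the same assembly as mm10, whose chromosome names and lengths were checked. A site within 3 kb of a protein-coding start was a promoter site, and one outside every protein-coding gene plus 3 kb a desert site, which went to its nearest member. HADs used means of 25 sites, a cutoff of -0.58 and a joining distance of 1 Mb, without chromosome Y. The domain caller was tested only on simulated stretches with a stronger loss than that of the chromosome 15 HADs, so that test does not bear on those calls. Python 3.11.15, numpy 2.4.6, pandas 2.3.3 and matplotlib 3.10.9 were used.

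The members, gene lists and windows were chosen with earlier results of these data known. Named sites were, per member, all promoter sites, the 2 gene sites with most reads in HAT1+/+ cells, and the lowest and the least changed site of the gene and its desert with 32 reads or more in HAT1+/+ cells. Other sites were added to show exceptions after their values were seen. No test between genotypes was made, as only genotype means were used. The least changed site of Cdh6 is not reported here.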

Additional observations from a re-analysis of the deposited data

How the results depend on the processing

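The log2 differences of windows, genes, deserts and of Cdh11 and Cdh6 against the other 8 genes were recomputed with means, with ratios of summed reads, with sites of 10 reads or more, with 5 reads added, with centring on all sites, with other window limits or gene extents and with promoter sites or 1 window or gene left out. None of 108 values moved by more than 0.53, and all 23 whose reported value was past 0.58 in size kept their sign. Cdh7 and Cdh12 were no longer past it with 5 reads added (-0.55 and -0.44), nor Cdh12 over sites of 10 reads or more (-0.52). The desert alternatives and the omission of sites nearest Cdh7, which gave -0.21, were chosen after seeing the data. The number of lower sites moved more. At a threshold of -0.58, 223 window sites and 34 gene sites were lower, and all tested sites came to 14.99%. With sites of 10 reads or more, 75 window sites, 9 gene sites and 58 desert sites were at or below -1. With 5 reads added there were 63, 7 and 51, and the share was 9.42% of window sites against 1.32% of all tested sites. HADs covered 26.14% of the chromosome 8 window at a cutoff of -1, and 62.26% and 0% of the chromosome 15 window at -0.4 and -1, by the construction of the cutoff. At -0.4 Cdh9 lay wholly within a HAD and at -1 Cdh10 and Cdh12 lay outside. Leaving out single lines was not run, and no paired analysis was possible because the values used are genotype means and the line names of the genotypes share only 1 number.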
